A study of Mus musculus with 10 samples.

Results

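The mitochondrially encoded genes are the genes carried by mitochondrial DNA itself, and they were taken as every gene of the count table whose Ensembl identifier maps to a symbol starting with mt- in the GRCm39 annotation. Of 37 such genes in the annotation, 28 were in the table of 29883 genes: all 13 mRNA genes, both rRNA genes and 13 of 22 tRNA genes, and the other 9 tRNA genes were not analysed here. The counts come from the nucleus accumbens (NAc), a part of the ventral striatum, of 5 C57BL/6J (B6) and 5 DBA/2J (D2) male mice. All 10 mice were ethanol-naive inbred animals, 9 weeks old and given no treatment, and each gave 1 poly-A library. Each mouse is a replicate of its strain, and the question was how basal expression differs between B6 and D2.

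Mitochondrial DNA is a small circular genome. It encodes subunits of respiratory complexes I, III and IV and of the ATP synthase, together with the rRNAs and tRNAs that translate them inside the organelle, while all other subunits are made from nuclear genes and imported. Both strands are transcribed as long precursor RNAs from which the single RNAs are cut, and most of the mRNAs then receive short poly-A tails. Pieces of mitochondrial DNA have also been copied into the nuclear chromosomes during evolution, and such nuclear copies can be nearly identical to the organelle's own genes.

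Several members cannot be read without one of these copies, so its sequence comes first. A search of the nuclear chromosomes of GRCm39 found 7 stretches with at least 95% identity to mitochondrial DNA over at least 150 bases. The longest, chr1:24650616-24655269, matched positions 6390 to 11042 of the mitochondrial genome (MT) over 4654 aligned bases with 99.936% identity. It spans the 3′ part of mt-Co1, the whole of mt-Co2, mt-Atp8, mt-Atp6, mt-Co3, mt-Tg, mt-Nd3, mt-Tr and mt-Nd4l, and the 5′ part of mt-Nd4. The reference sequences differ at 3 places only, with positions counted along MT: A6393T in mt-Co1, which lies 3 bases from the end of the copy, T9461C in mt-Nd3, 2 bases after the first base of the gene, and 1 additional A in mt-Tr. The pairs below show both inner differences, 5′ to 3′ in the direction of the mitochondrial gene. In the first pair (MT:9459-9518, plus strand, and chr1:24652141-24652200, minus strand) the capital is the base that differs, and in the second (MT:9808-9875, plus strand, and chr1:24651783-24651851, minus strand) the capitals are the longest run of A, which is 8 bases long in mt-Tr and 9 in the copy, so that the copy is 69 bases long where the gene has 68. The last sequence (MT:7897-7999, plus strand) is shown because the capitals belong to 2 genes at once, the end of mt-Atp8 and the start of mt-Atp6, and because all of it is the same in the chromosome 1 copy.
mt-Nd3 start: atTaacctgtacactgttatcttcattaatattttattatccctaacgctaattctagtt
mt-Nd3 chr1 copy: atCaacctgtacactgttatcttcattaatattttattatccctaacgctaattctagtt
mt-Tr: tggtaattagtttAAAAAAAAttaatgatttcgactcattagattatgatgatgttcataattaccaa
mt-Tr chr1 copy: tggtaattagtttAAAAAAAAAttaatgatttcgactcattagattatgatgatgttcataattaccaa
mt-Atp8 and mt-Atp6: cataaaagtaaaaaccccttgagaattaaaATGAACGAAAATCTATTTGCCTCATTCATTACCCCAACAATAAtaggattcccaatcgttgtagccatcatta

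The files hold no reads, so the bases that B6 and D2 mice of this study carry at these places were not analysed here. The libraries were made with a stranded kit, but whether the gene counting used strand, and how it treated reads that match several places, is not given in the sources used here.

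The libraries held 96977262 to 111468080 counted reads in B6 mice and 104443243 to 116776714 in D2 mice. The defining striatal markers were present in every library. The 10 striatal marker genes were together lower in D2, with summed levels of 5906 to 7366 CPM (counts scaled to a common library size) in B6 mice and 4858 to 5840 in D2 mice, and 7 of the 10 passed the test as lower (Drd2, the D2 dopamine receptor, by 0.46 on the log2 scale, SE 0.045). Oligodendrocyte markers summed to 4293 to 6202 CPM in B6 and 3242 to 4734 in D2, with 4 of 6 lower. Blood markers summed to 71.8 to 99.5 CPM in B6 and 42.2 to 77.9 in D2, with 3 of 5 lower, and cortex markers ranged from 156.6 to 1012 CPM in B6 and from 308.7 to 670.3 in D2, with 0 of 8 called. Of 6 astrocyte markers 1 was higher and 2 lower, and of 6 microglia markers 1 was higher and 1 lower. Of 5 endothelium markers 0 were called, and of 4 choroid plexus markers 1 was lower. Over all genes 9.83% were called lower and 8.5% higher. Of the summed levels of the marker lists the striatal one alone did not overlap between the strains, and the part of the marker levels in the results that follow was not tested. In these tissue libraries, fewer cells of a type, fewer mitochondria per cell and less RNA per mitochondrion cannot be told apart.

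Reads on mitochondrially encoded genes took a smaller part of the library in D2 than in B6. In the 5 B6 mice the 28 genes together held 4.962%, 4.782%, 4.917%, 4.974% and 4.606% of all counted reads. In the 5 D2 mice they held 4.019%, 3.928%, 3.95%, 3.954% and 3.838%. Every D2 mouse lay below every B6 mouse, and the mice of a strain differed among themselves by much less than the strains did. The means were 4.85% ± 0.155 in B6 and 3.94% ± 0.0654 in D2 (SD, n = 5 each), a difference of -0.911 percentage points and a ratio of 0.812.

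**Figure D1:**
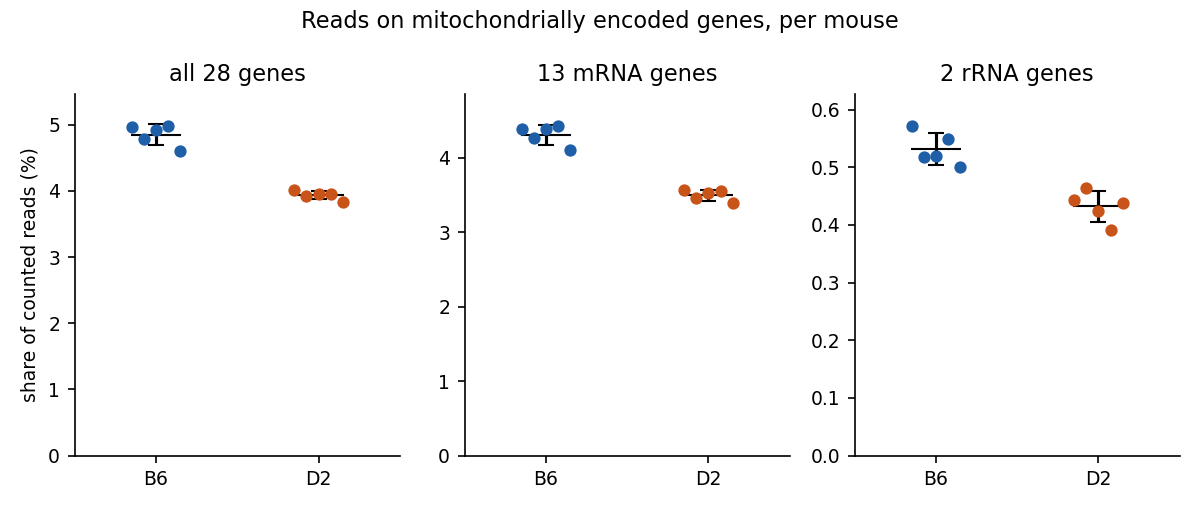
Share of counted reads (%, vertical axis) on all 28 mitochondrially encoded genes, on the 13 mRNA genes and on both rRNA genes, for each B6 (blue) and D2 (orange) mouse, with the mean and SD of 5 mice per strain in black. All D2 mice lie below all B6 mice in each panel, at 3.84% to 4.02% against 4.61% to 4.97% for all genes.

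The mRNA genes made up most of that share, with 4.31% ± 0.134 of the library in B6 and 3.5% ± 0.0735 in D2. The rRNA genes held 0.531% ± 0.0278 in B6 and 0.432% ± 0.0271 in D2, and the tRNA genes, which are short, held 0.00225% and 0.00177%. The ratio of D2 to B6 was close in the 3 classes, at 0.812, 0.813 and 0.789. No class overlapped between the strains.

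Each gene was then compared on its own. By the quasi-likelihood test of edgeR, after TMM scaling (a library scaling that centres most genes on no change), 22 of the 28 members (78.6%) were lower in D2 at an adjusted p below 0.05 and 0 were higher. Over all 29883 genes, 9.83% were called lower and 8.5% higher. At an unadjusted p below 0.05, 23 members were lower. The median log2 fold change of the members was -0.44, against 0.0036 over all genes tested, and 26 of 28 members had a negative value. The normalized counts of the strains did not overlap for 19 members, all lower in D2, where 8.63% of all genes were wholly lower and 7.39% wholly higher. The called members were 12 of 13 mRNA genes, both rRNA genes and 8 of 13 tRNA genes. mt-Nd6, mt-Tv, mt-Ti, mt-Ta, mt-Ty and mt-Te did not pass. Both mt-Tg and mt-Tr were at 0 in every D2 mouse and passed the authors' filter on low medians through B6 mice alone; without them 20 of 26 members were lower.

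The reads were spread very unevenly over the members. The 8 members that averaged 100000 counts or more (mt-Rnr1, mt-Rnr2, mt-Nd1, mt-Nd2, mt-Co1, mt-Nd4, mt-Nd5 and mt-Cytb, a set made after the counts were seen) held 99.81% to 99.85% of the mitochondrial reads of each mouse. Their log2 fold changes lay between -0.45 and -0.22, which is 0.73 to 0.857 of the B6 level, and none of the 8 overlapped between strains.

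Complex I takes electrons from NADH, and 7 of its subunits are mitochondrially encoded. mt-Nd1 (MT:2751-3707) stood at 6109, 5952, 6590, 6302 and 6120 CPM in B6 mice and at 5488, 5156, 5425, 5504 and 5044 in D2 mice. The strains did not overlap, and the difference was the smallest among the 8 abundant genes, with a log2 fold change of -0.22 (SE 0.047, adjusted p = 0.00455). mt-Nd5 had the largest difference of the 4 abundant complex I subunits. It stood at 4945, 4389, 4936, 4675 and 4294 CPM in B6 mice and at 3416, 3264, 3501, 3515 and 3260 in D2 mice, a change of -0.45 (SE 0.053, adjusted p = 4.24e-05). mt-Nd2 fell by 0.25 and mt-Nd4 by 0.35 on the log2 scale (SE 0.047 each), again without overlap. mt-Nd3 and mt-Nd4l, which belong to the region of the nuclear copy, are described with it.

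mt-Nd6 is the only mRNA gene transcribed in the opposite direction to all others, and the only one not called. It stood at 43.6, 48.6, 42.5, 30.97 and 48.6 CPM in B6 mice and at 43.0, 33.5, 43.3, 45.7 and 43.3 in D2 mice. The strains overlapped fully, with a log2 fold change of -0.04 (SE 0.11, adjusted p = 0.876). Of the 6 members on that strand (mt-Nd6, mt-Tq, mt-Ta, mt-Ty, mt-Te and mt-Tp), 2 were called lower, mt-Tq and mt-Tp. On the other strand 20 of the 22 members were called lower. The median log2 fold change was nearly the same, -0.43 for the 6 and -0.44 for the 22, with 5 and 21 negative values. The difference in calls was not tested, and 3 of the 6 had a mean below 100 counts. Since the strand setting of the gene counting is not given, reads from precursor RNA of the opposite strand cannot be told apart from mt-Nd6 RNA.

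mt-Cytb, the mitochondrially encoded subunit of complex III, stood at 8444, 8159, 8185, 8394 and 7640 CPM in B6 mice and at 6186, 5993, 6165, 6108 and 5817 in D2 mice. The strains lay far apart against their spread, with a log2 fold change of -0.43 (SE 0.045, adjusted p = 1.76e-05). mt-Co1, the catalytic subunit of complex IV, had the most reads of all members. It stood at 15897, 15978, 16895, 16680 and 16645 CPM in B6 mice and at 13698, 13132, 13405, 13136 and 12852 in D2 mice, a change of -0.31 (SE 0.046, adjusted p = 0.000358). The other complex IV subunits had far lower counts, with mt-Co2 at 7.10 ± 1.09 CPM in B6 and 5.35 ± 0.323 in D2, and mt-Co3 at 4.70 ± 0.748 and 3.23 ± 0.284. Both were lower in D2, by 0.41 (SE 0.10, adjusted p = 0.0117) and by 0.54 (SE 0.11, adjusted p = 0.00433) on the log2 scale, and only mt-Co3 was without overlap.

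The ATP synthase subunits mt-Atp8 and mt-Atp6 overlap by 43 bases, so part of their reads cannot be assigned to either. mt-Atp8 had 55, 46, 84, 63 and 67 reads in B6 mice and 41, 33, 40, 55 and 40 in D2 mice. mt-Atp6 had 247, 288, 382, 386 and 320 reads in B6 mice and 256, 211, 218, 279 and 279 in D2 mice. The strains overlapped in both genes. The log2 fold changes were -0.73 (SE 0.21, adjusted p = 0.0263) for mt-Atp8 and -0.52 (SE 0.16, adjusted p = 0.0402) for mt-Atp6. These calls were the least firm among the mRNA genes. mt-Atp8 was not called without B6 replicate 3 (-0.57), 4 (-0.72) or 5 (-0.72), or without D2 replicate 1 (-0.71), 2 (-0.66), 3 (-0.72) or 5 (-0.74). mt-Atp6 was not called without B6 replicate 3 (-0.43), 4 (-0.45) or 5 (-0.54), or without D2 replicate 1 (-0.52), 2 (-0.47), 3 (-0.48) or 4 (-0.56).

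Both rRNAs of the mitochondrial ribosome were among the abundant members. mt-Rnr1, the small subunit rRNA, stood at 2285, 2069, 2171, 2170 and 2096 CPM in B6 mice and at 1612, 1705, 1581, 1410 and 1598 in D2 mice, a change of -0.45 (SE 0.052, adjusted p = 4.41e-05). mt-Rnr2, the large subunit rRNA, lies directly downstream after mt-Tv and fell by 0.26 (SE 0.052, adjusted p = 0.00361), from 3213 ± 149.5 to 2691 ± 158.9 CPM. Both were without overlap between the strains.

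The tRNA genes had few reads. Mean counts went from 885.5 for mt-Tw, the tRNA for tryptophan, down to 0.9 for mt-Tv, the tRNA for valine. These genes are 67 to 75 bases long, shorter than a full-length read, and the libraries were poly-A libraries. Whether their reads come from single tRNAs or from longer RNA that spans neighbouring genes was not tested. The values are thus counted reads at the tRNA genes, not levels of tRNA. mt-Tw stood at 9.25 ± 0.394 CPM in B6 and 7.23 ± 0.608 in D2, without overlap and with a log2 fold change of -0.36 (SE 0.065, adjusted p = 0.00172). Of the next in read number, mt-Tm (tRNA for methionine) changed by -0.30, mt-Tp (proline) by -0.46 and mt-Tt (threonine) by -0.55, all called. mt-Ti (isoleucine) had a value of -0.18 (SE 0.11, adjusted p = 0.314) and overlapped between strains. All called tRNA members were lower in D2, and none overlapped between the strains.

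**Figure D2:**
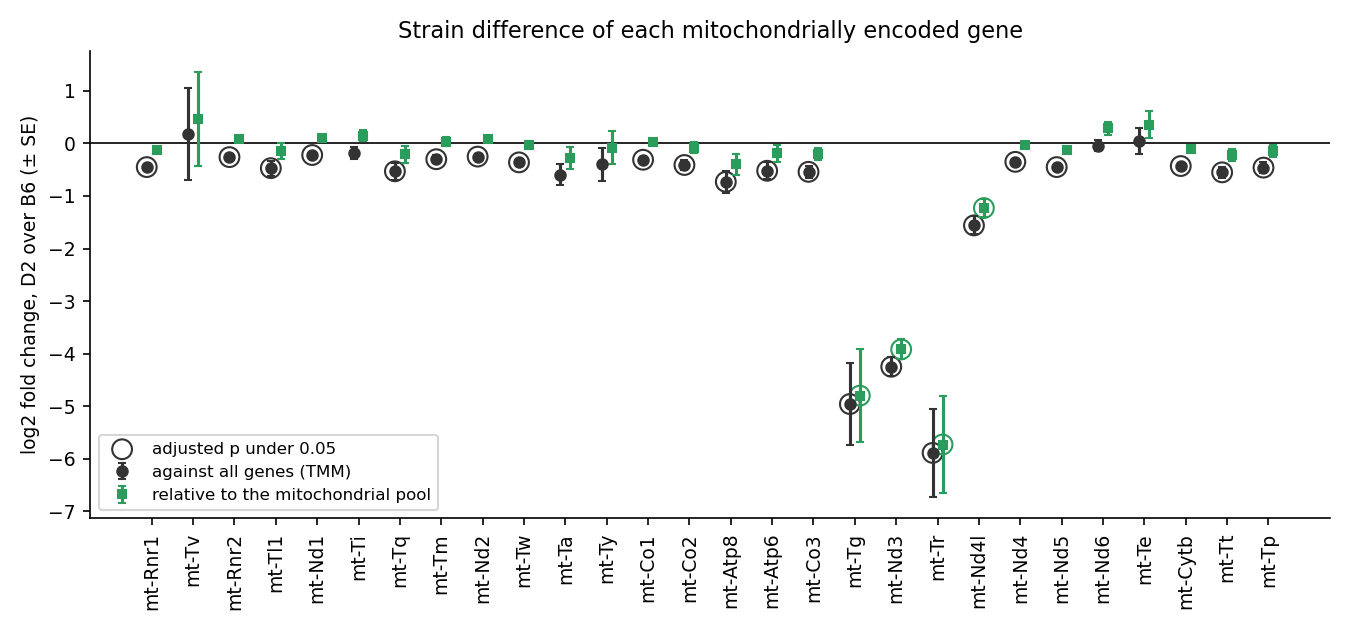
Log2 fold change of D2 over B6 (vertical axis, with its SE) for each of the 28 members in their order along mitochondrial DNA, in the comparison against all genes (black circles) and relative to the summed mitochondrial reads of each mouse (green squares). Open rings mark an adjusted p below 0.05: 22 members against all genes, and mt-Tg, mt-Nd3, mt-Tr and mt-Nd4l relative to the pool.

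A second comparison asked which members differ beyond the pool as a whole, with the summed mitochondrial reads of each mouse as its library size. This scaling moved the median of all genes by 0.33 on the log2 scale. Of the 28 members, 4 were lower in D2 and 0 higher, where 4.22% of all genes were called lower and 47.3% higher in this scaling. The 4 were mt-Nd3, mt-Nd4l, mt-Tr and mt-Tg. The 8 abundant genes had values between -0.12 and 0.11, the lowest adjusted p among them being 0.058, for mt-Nd5. They held 99.81% to 99.85% of the pool, so this scaling sets their common level near 0. Only shifts among these 8 can show in it. As shares of the pool, mt-Nd1 went from 12.7% ± 0.27 to 13.7% ± 0.33 and mt-Nd2 from 8.81% ± 0.33 to 9.33% ± 0.10 without overlap, and mt-Nd5 went from 9.48% ± 0.39 to 8.71% ± 0.24 and mt-Cytb from 16.7% ± 0.49 to 15.5% ± 0.12, also without overlap. None of these 4 passed the test, although mt-Nd5 did without B6 replicate 5 (-0.14, adjusted p = 0.0242). Over all members 6 shares were wholly lower and 2 wholly higher in D2 (2.93% and 37.6% of all genes), and a share can only rise as others fall. mt-Co1 held about the same share in both strains, 33.5% ± 1.0 and 34% ± 0.23.

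mt-Nd6 was at 0.29 above the pool (SE 0.12, adjusted p = 0.0568). It lay near the median of all genes in this scaling, 0.33, where 47.3% of all genes were called higher. Its call turned on single mice: it was higher in D2 relative to the pool without B6 replicate 2 (0.35, adjusted p = 0.0307), without B6 replicate 5 (0.35, adjusted p = 0.0266) or without D2 replicate 2 (0.36, adjusted p = 0.0211).

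Levels were compared between members per length. The libraries were poly-A libraries, and how well each RNA was captured was not measured. The order of mRNA and rRNA genes is thus one of counted reads, not of RNA amounts in the tissue. In CPM per kilobase (kb) of gene, mt-Co1 led in both strains, with 10627 in B6 (range over mice 10289 to 10935) and 8573 in D2 (8318 to 8866). mt-Cytb followed in B6 with 7137 ahead of mt-Nd1 with 6494, and their ranges overlapped. In D2 the order was turned, with 5563 for mt-Nd1 and 5292 for mt-Cytb, again with overlapping ranges. Then came mt-Nd2 (4162 in B6 and 3500 in D2), mt-Nd4 (2748 and 2151), mt-Nd5 (2548 and 1859), mt-Rnr1 (2260 and 1656) and mt-Rnr2 (2031 and 1701). In B6 the ranges of mt-Nd4 and mt-Nd5 and those of mt-Nd5 and mt-Rnr1 overlapped, and in D2 those of mt-Nd5 and mt-Rnr2 and of both rRNAs. All other mRNA genes stood below 100 CPM per kb. mt-Nd6 had 82.5 and 80.4, and mt-Co2, mt-Atp8, mt-Atp6, mt-Co3, mt-Nd3 and mt-Nd4l, which lie between mt-Co1 and mt-Nd4 along the genome, had between 2.27 and 13.4 in B6.

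The 6 mRNA genes of lowest level all lie wholly inside the chromosome 1 copy. A window of 150 bases, the length of a read, was moved along each gene to ask how often its sequence has an exact nuclear copy; reads came in pairs, which reach farther than 1 window. The share of windows with an exact copy was 100% for mt-Co2, mt-Atp8 and mt-Atp6, 91.53% for mt-Co3, 79.15% for mt-Nd4l, 57.37% for mt-Nd4, 44.27% for mt-Nd3, 35.02% for mt-Tr, 32.26% for mt-Tg, 29.87% for mt-Co1 and 12.5% for mt-Ty. It was 0 for the other 17 members. A gene at 100% thus has no window of this length that belongs to mitochondrial DNA alone. With CPM per 1000 windows inside the gene that have no exact copy, a measure chosen after the counts were seen, mt-Nd4 stood at 7543 in B6 and 5904 in D2, in place of 3081 and 2412 with all windows, and mt-Co1 at 15402 and 12425 in place of 11761 and 9488.

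**Figure D3:**
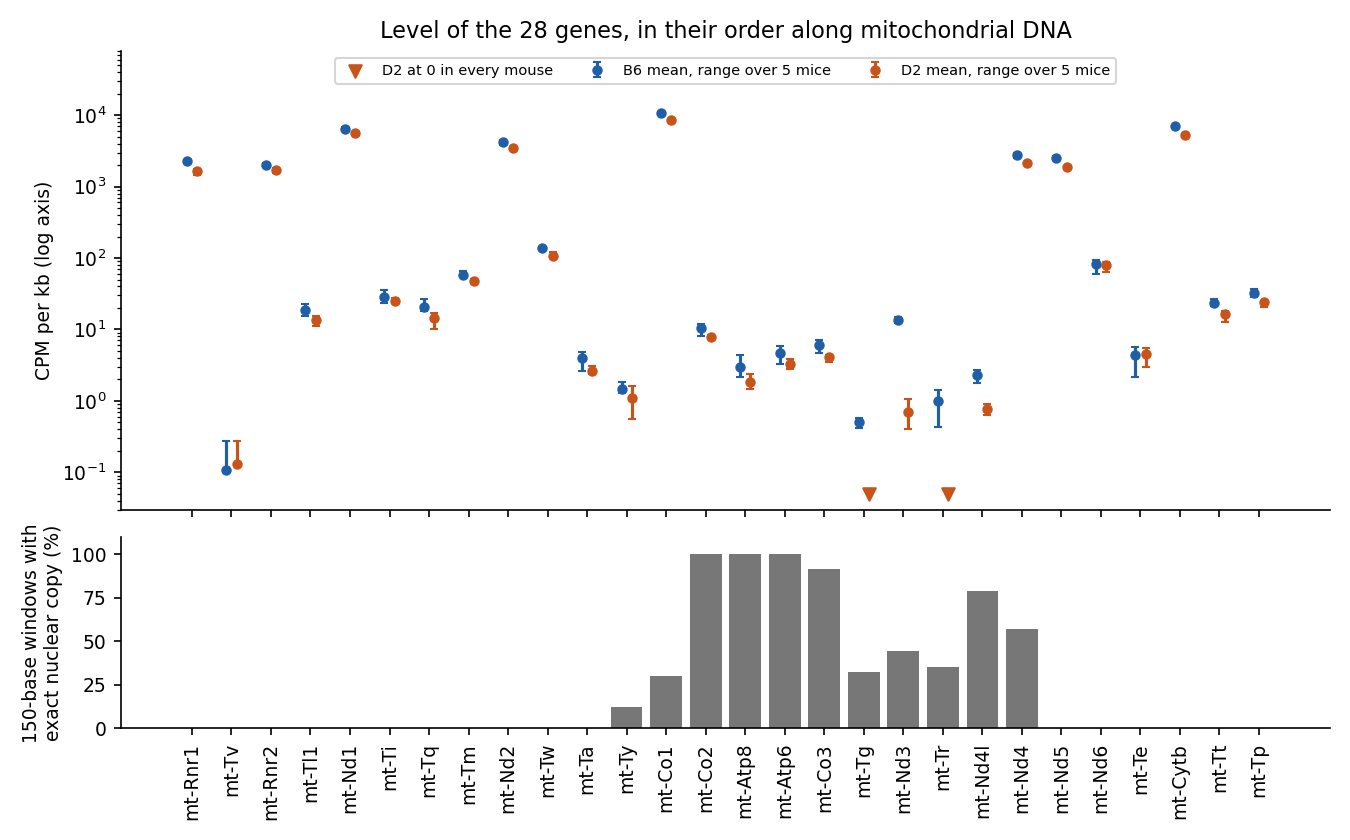
Upper panel: mean level in CPM per kb (log axis) of the 28 members in their order along mitochondrial DNA for B6 (blue) and D2 (orange), with bars for the range over 5 mice and triangles where D2 was at 0. Lower panel: percentage of 150-base windows of each gene with an exact nuclear copy, which is 100% for mt-Co2, mt-Atp8 and mt-Atp6.

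mt-Nd3 showed the widest strain difference of any mRNA gene. It had 559, 541, 415, 449 and 447 reads in B6 mice and 29, 29, 24, 16 and 39 in D2 mice. The strains were 19.0-fold apart, with a log2 fold change of -4.25 (SE 0.18, adjusted p = 5.22e-09), and -3.92 relative to the pool (SE 0.19, adjusted p = 3.4e-09). Its copy on chromosome 1, the pseudogene Gm28438 (chr1:24651856-24652200), went the other way. Gm28438 had 55, 21, 40, 134 and 40 reads in B6 mice and 2334, 1818, 1900, 2121 and 1923 in D2 mice, a change of 4.99 (SE 0.34, adjusted p = 3.25e-07), and 5.57 without B6 replicate 4, the highest B6 mouse. Of the reads counted on either gene, mt-Nd3 held 77.0% to 96.3% in B6 mice and 0.749% to 1.99% in D2 mice.

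When both were added up as 1 feature, a step chosen after the counts were seen, the direction turned: B6 mice had 455 to 614 reads and D2 mice 1847 to 2363, a change of 1.80 (SE 0.075, adjusted p = 4.29e-09).  Even the sum stood far below the counts of neighbouring genes outside the copy, such as 431235 for mt-Nd5.

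mt-Nd4l showed the same opposition at smaller size. It had 70, 70, 75, 77 and 55 reads in B6 mice and 26, 21, 29, 24 and 28 in D2 mice, a change of -1.56 (SE 0.17, adjusted p = 1.99e-05). Its copy Gm10222 (chr1:24651488-24651781, named after its values were seen) had 44, 53, 39, 53 and 40 reads in B6 mice and 139, 105, 100, 135 and 106 in D2 mice, a change of 1.22 (SE 0.14, adjusted p = 5.11e-05). The strains did not overlap in either gene. Their sum did not pass the test, with a change of 0.18 (SE 0.12, adjusted p = 0.391).

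mt-Tr, the tRNA for arginine, had 9, 10, 5, 3 and 8 reads in B6 mice and 0 in each D2 mouse. mt-Tg, the tRNA for glycine, had 4, 4, 3, 4 and 3 reads in B6 mice and 0 in each D2 mouse. With 3 reads over the 5 D2 mice as the limit that a count of 0 allows, mt-Tr was at least 12.7-fold and mt-Tg at least 6.5-fold lower in D2. Both were called (adjusted p = 0.00132 and 0.00233), on few reads. Both lie wholly inside the chromosome 1 copy, and no copy gene was counted for either. A sum with the copy, which turned the direction of mt-Nd3, could therefore not be made for them.

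Without mt-Tr and mt-Tg, which had passed the filter through B6 alone, 2 of 26 members were called relative to the pool, mt-Nd3 and mt-Nd4l. Of the sequence differences shown above, T9461C lies inside mt-Nd3 and 3 bases from mt-Tg, and the additional A lies inside mt-Tr, 18 bases from mt-Nd3 and 53 bases from mt-Nd4l. Next in distance was mt-Co3, 71 bases from T9461C, of whose 933 windows 79 reach it; it stood at -0.20 relative to the pool (SE 0.11, adjusted p = 0.148), and at -0.28 without B6 replicate 1, where it was called (adjusted p = 0.0316). mt-Nd4, at 343 bases from the additional A, and mt-Atp6, mt-Atp8 and mt-Co2, farther away, have no window that reaches either of these differences. In that order they stood at -0.02 (SE 0.049), -0.19 (SE 0.16), -0.40 (SE 0.20) and -0.08 (SE 0.10) relative to the pool. None of them was called, but mt-Atp8, on few reads, lay farther below the pool than mt-Co3. mt-Co1 holds the third difference, A6393T, which 150 of its windows reach. That difference lies 3 bases from the end of the copy, so most of these windows run past the copy. mt-Co1 was not called relative to the pool, but it is itself the largest part of that pool. Its value therefore cannot show whether A6393T matters for the counts. These distances are a description and were not tested. Whether the reads on mt-Nd3 and Gm28438 come from mitochondrial or nuclear RNA was not tested.

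Of the other 5 pairs, mt-Co3 and its copy Gm28437 moved apart in the same direction to a smaller degree. mt-Co3 held 58.1% to 70.3% of the reads of the pair in B6 mice and 45.9% to 52.6% in D2 mice, without overlap, although Gm28437 itself was not called (0.15, SE 0.097, adjusted p = 0.355). The shares of mt-Atp6 (31.8% to 45.4% and 30.5% to 36.4%) and of mt-Co2 (58.3% to 66.2% and 56.5% to 62.3%) overlapped between the strains. Atp6-ps, the copy of mt-Atp6, had a value of -0.17 (SE 0.063, adjusted p = 0.0863). The copies of mt-Co2 (Gm28661, -0.25), mt-Nd4 (Gm28439, -0.33) and mt-Co1 (Gm29216, -0.37) were lower in D2, as were their mitochondrial partners. Gm28661 was not called without B6 replicate 2 (-0.26), 4 (-0.23) or 5 (-0.21) or without D2 replicate 1 (-0.25), 2 (-0.27), 3 (-0.27), 4 (-0.25) or 5 (-0.24), and Gm28439 not without B6 replicate 4 (-0.30) or 5 (-0.31) or D2 replicate 2 (-0.33) or 3 (-0.31). Scaled by total counts, neither was called (-0.22, adjusted p = 0.0677, and -0.30, adjusted p = 0.0507). Added to their copies, mt-Co2 (-0.35, adjusted p = 0.00545), mt-Atp6 (-0.30, adjusted p = 0.0202) and mt-Co3 (-0.24, adjusted p = 0.0497) remained lower. On chromosome 2, Gm13340 and Gm13341, copies of mt-Co1 and mt-Co2, had values of -0.29 (SE 0.30) and -0.07 (SE 0.20) and were not called. With all 7 chromosome 1 copies added to their partners, 20 members were lower and 1, mt-Nd3, was higher, where 9.82% of all genes were lower and 8.5% higher. The 20 include mt-Atp8 (-0.73), mt-Tg (-4.96) and mt-Tr (-5.89), which lie wholly inside the copy but had no counted copy gene to add.

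**Figure D4:**
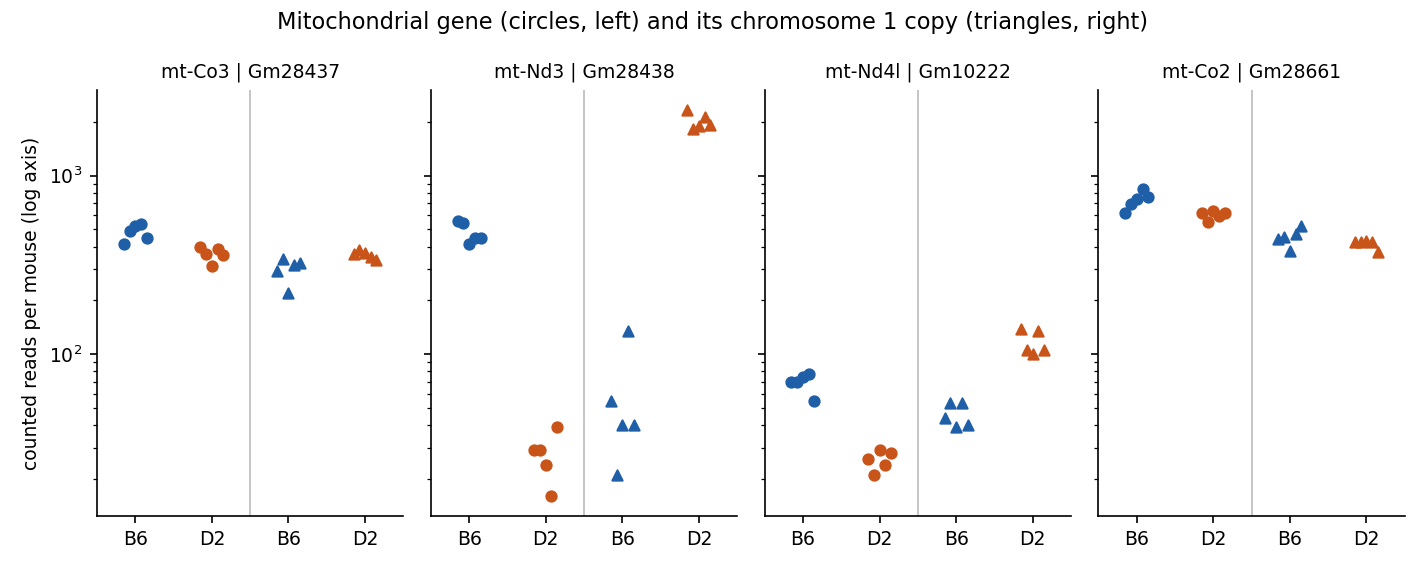
Counted reads per mouse (log axis) on mt-Co3, mt-Nd3, mt-Nd4l and mt-Co2 (circles) and on the copy of each on chromosome 1 (triangles), with B6 in blue and D2 in orange. mt-Nd3 falls from 415 to 559 reads in B6 to 16 to 39 in D2 while Gm28438 goes from 21 to 134 up to 1818 to 2334; mt-Nd4l and Gm10222 part in the same way, mt-Co3 and Gm28437 less so, and mt-Co2 and Gm28661 are both lower in D2.

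Nuclear genes that serve the same organelle were called as often higher as lower after TMM scaling. Of 164 nuclear genes in 9 lists, 15 were called higher and 15 lower in D2 (8.5% and 9.83% of all genes), with a median log2 fold change of 0.01. Scaled by total counts, 24 were higher and 12 lower. That scaling put the median log2 fold change of all genes at 0.035, against 0.0036 with TMM, and the shares above belong to TMM. With TMM but without D2 replicate 1 or without D2 replicate 3, the number higher was 9. The 75 nuclear subunits of complexes I, III and IV and of the ATP synthase, which assemble with the mitochondrially encoded ones, had 5 higher and 6 lower, with a median of 0.00. Ndufa3, an accessory subunit of complex I, was lower in D2, with a log2 fold change of -0.25 (SE 0.048, adjusted p = 0.00289), at 46.0 ± 2.61 CPM in B6 and 38.8 ± 2.11 in D2. Uqcrc2, a core subunit of complex III, had a change of 0.11 (SE 0.032) and Cox5b, a subunit of complex IV, of -0.31 (SE 0.057). The Uqcrc2 call was lost without B6 replicate 3 (0.10) or 4 (0.11) or D2 replicate 1 (0.11), 3 (0.11) or 5 (0.10). In the ATP synthase, Atp5mc1, a gene of the membrane ring, changed by 0.26 (SE 0.046) and the stalk subunit Atp5pd by -0.25 (SE 0.041).

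The 79 factors that copy, transcribe, process, modify and translate mitochondrial genes had 10 higher and 8 lower, with a median of 0.02. Over all genes 8.5% were called higher and 9.83% lower. Among the 17 replication and transcription factors, 1 was higher and 3 lower, and Mgme1, a nuclease of mitochondrial DNA maintenance, changed by -0.40 (SE 0.08) and Mterf3, a regulator of mitochondrial transcription and ribosome assembly, by -0.38 (SE 0.044, adjusted p = 3.84e-05). Of 23 genes of RNA processing and stability, 2 were higher and 2 lower: Ptcd1, which acts in mitochondrial RNA processing, changed by -0.39 (SE 0.044) and Pnpt1, a mitochondrial RNA degrading enzyme, by 0.30 (SE 0.046). Of 17 RNA modification genes, 4 were higher and 1 lower. Their summed level was 260.2 to 267.7 CPM in B6 mice and 268.3 to 280.4 in D2 mice. These ranges nearly touch but did not overlap, which held for no other of the 9 lists. The sums were taken with TMM scaling only, and whether the gap holds in another scaling was not tested. Trmt61b, which methylates mitochondrial RNA, had the widest change of the genes named from the 9 lists, -0.62 (SE 0.058, adjusted p = 6.01e-06), from 10.4 ± 0.664 to 6.74 ± 0.261 CPM. Mrm1, a methyltransferase of mitochondrial rRNA, changed by 0.26 (SE 0.082, adjusted p = 0.0472) and was not called without B6 replicate 1 (0.20), 2 (0.26) or 4 (0.23) or D2 replicate 1 (0.27), 2 (0.26), 3 (0.22) or 5 (0.24), nor with TMM scaling without mitochondrial genes (0.25, adjusted p = 0.0566). Of 22 tRNA charging genes, 3 were higher and 2 lower, with Fars2, which charges the tRNA for phenylalanine, at 0.44 (SE 0.063).

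Of 10 genes often used as measures of mitochondrial content, which include citrate synthase (Cs), the Vdac channels and the TOM import subunits, 0 were higher and 1 was lower, Tomm22 (-0.28, SE 0.044), with a median of 0.01. Their summed level was 1578 to 1667 CPM in B6 mice and 1591 to 1684 in D2 mice.

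**Figure D5:**
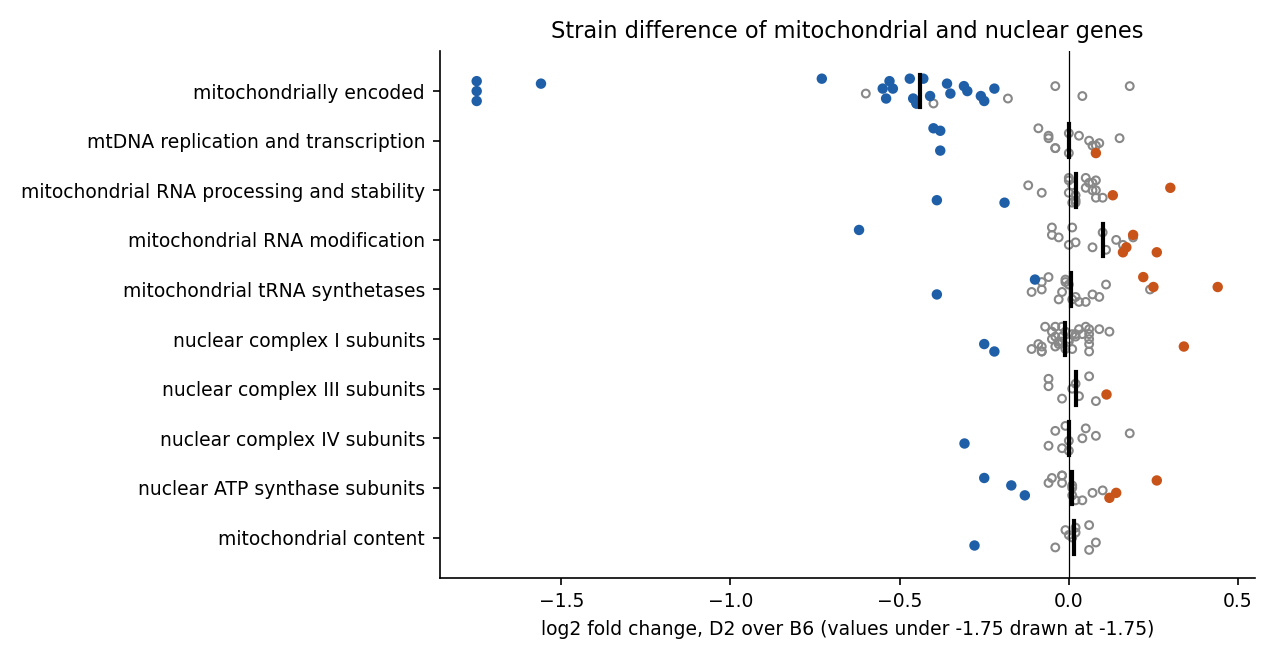
Log2 fold change of D2 over B6 (horizontal axis) for the 28 mitochondrially encoded genes and for the nuclear genes of 9 lists, 1 point per gene. Filled points were called (blue lower, orange higher in D2), open points were not, and black bars are medians: -0.44 for the mitochondrially encoded genes and between -0.01 and 0.10 for the nuclear lists.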

How the data were processed

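Poly-A RNA of the NAc of 5 B6 and 5 D2 mice was sequenced in pairs of reads from a stranded kit, 1 library per mouse. Per the labels and methods, reads were cleaned with fastp, mapped by STAR 2.7.10b to GRCm39, the B6 reference, sorted in SAMtools 1.6 and summed by gene in featureCounts. What the authors deposited are these unscaled counts, without genes whose median was 0. Symbols and positions came from the GENCODE annotation of GRCm39, which held 29519 of the 29883 genes. Counts were fitted here with edgeR 4.0.16 (TMM, quasi-likelihood F test, two-sided, strain as the factor) in R 4.3.3 on all genes, adjusted by Benjamini-Hochberg across the whole table, at a threshold of 0.05. The SE is the size of the log2 fold change over the root of F. CPM is scaled by the TMM factors. For the pool comparison the library size was the sum of the 28 members. Nuclear copies were searched with blastn 2.17.0. Limits for counts of 0 use 3 counts and cover counting error only.

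Named were all mRNA and rRNA members, the 5 tRNA genes with the highest mean count and the 3 called ones with the widest change, nuclear copies averaging 100 counts or more, and the 2 called genes with the widest change per nuclear list, of which 2 are not reported here. The members and lists were chosen with earlier results of these data known. The alternatives were DESeq2 1.42.0, its size factors, total counts, upper-quartile scaling, scaling without mitochondrial genes, filterByExpr, at least 10 counts in every sample, a replicate block, each mouse left out in turn and other pools. The fits were tested on simulated data. Figures and tables were made with Python 3.11.15, numpy 2.4.6, pandas 2.3.3 and matplotlib 3.10.9.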

Additional observations from a re-analysis of the deposited data

Results flagged for a closer look

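Within a strain, 5 values stood apart from the other 4 mice by Dixon's criterion, out of 60 groups of 5 looked at, where chance alone gives about 1 in 20 groups. The lowest D2 value of mt-Co3 was 2.73 CPM in replicate 3, with the next at 3.30. The lowest D2 values of mt-Nd6 (33.5 CPM, next 43.0) and mt-Tp (1.40 CPM, next 1.62) were both in replicate 2. The highest B6 value of Gm28438, the chromosome 1 copy of mt-Nd3, was 1.33 CPM in replicate 4, with the next at 0.491. The highest B6 value of Atp6-ps, the chromosome 1 copy of mt-Atp6, was 5.31 CPM in replicate 5, with the next at 4.87.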

How the results depend on the processing

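The number of members lower in D2 lay between 18 and 22 under all 19 alternatives, and it was 18 to 22 when each mouse was left out. The replicate numbers do not pair the mice: the deviations of same-numbered mice correlated between -0.445 and 0.412, and 2 of 5 B6 mice correlated best with their own number. With a replicate block 18 members were lower, mt-Atp6 (-0.50, adjusted p = 0.0536) and mt-Tg (-4.96, adjusted p = 0.0608) among those lost. The block also ended the calls of Gm28661 (-0.25, adjusted p = 0.0899), Gm28439 (-0.33, adjusted p = 0.051) and Uqcrc2 (0.11, adjusted p = 0.0594), and relative to the pool the block gave 4 lower. With the chromosome 1 copies added, 1 member was higher: mt-Nd3 turned to 1.80 and mt-Nd4l to 0.18. No member was higher with a mouse left out (0 to 0). Relative to the pool, 0 to 1 were higher and 4 to 5 lower with a mouse left out. mt-Nd6 lay between -0.13 and 0.03 with a mouse left out, Gm13341 between -0.20 and 0.04, and mt-Tw relative to the pool between -0.06 and 0.00. The share difference lay between -0.971 and -0.879 points with a mouse left out, at -0.996 against nuclear reads and at -0.81 for mRNA genes alone. Genes of the nuclear lists called higher rose to 24 with total counts, where the median of all genes was 0.035, and were 9 to 16 with a mouse left out. Where no cause is given above, the cause was not tested. Depth limits mt-Tr, mt-Tg, mt-Tv, mt-Ty and mt-Ta, which had few reads.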
